A study of Mus musculus with 18 samples.

Results

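Nuclear RNA of tibialis anterior (TA) myofibers was compared with nuclear RNA of extensor digitorum longus (EDL) myofibers, using 6 of the 18 arrays of the study, 3 for each muscle, chosen by their labels alone. Both muscles lie in the anterior compartment of the lower hind limb and are composed mostly of fast-twitch fibers. The mice were wild-type CD1 females aged 3 months. Muscles were digested with collagenase, intact fibers were picked by hand, pools of 5 to 10 fibers were lysed in detergent, and nuclei were pelleted away from the cytoplasm before RNA extraction. By the labels, TA nuclei replicates 1, 2 and 3 came from 1 mouse each, numbered 1, 2 and 3, and EDL nuclei replicates 1, 2 and 3 from mice 3 and 4, 5 and 6, and 7 and 8, so mouse number 3 stands in both groups. No treatment was given to any animal. The soleus, a slow muscle, and the cytoplasmic fraction of all 3 muscles were measured in the same series, and their arrays are used below only beside the values of TA and EDL nuclei. By the labels, soleus replicates and EDL cytoplasm replicates came from the same mice as the EDL nuclei replicate of that number. TA cytoplasm 1 came from mice 5 and 1, TA cytoplasm 2 from mice 5 and 2, and TA cytoplasm 3 from mouse 9.

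A myofiber is a multinucleated cell formed by the fusion of myoblasts, and its nuclei transcribe the genes of the contractile apparatus in a fiber type-specific manner: fast fibers use fast isoforms of myosin, troponin and calcium pump, slow fibers their slow counterparts. Nuclear RNA holds nascent and processed transcripts together with long non-coding RNAs (lncRNAs), many of which stay in the nucleus. Satellite cells, endothelial cells, pericytes, Schwann cells and tendon cells lie against the fibers and can be carried along when fibers are isolated. In such a bulk sample, fewer cells of a type and less RNA per cell cannot be told apart.

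Muscle and slide could not be told apart. The 3 TA nuclear arrays were on slide 4 and were scanned on the third day, and the 3 EDL nuclear arrays were on slide 2, with the soleus nuclei, and were scanned on the second day. The cytoplasmic arrays were not split in this way: TA cytoplasm 1 was on slide 1 with the EDL and soleus cytoplasm, whereas TA cytoplasm 2 was on slide 4 and TA cytoplasm 3 on slide 3. TA cytoplasm 1 was therefore the single TA array that shared a slide with EDL arrays, and its difference from the mean of the 3 EDL cytoplasm arrays, called the slide 1 difference here, is printed beside the nuclear result as a value from 1 array with no test. No count could be made without the slide in doubt, since all 3 TA nuclear arrays lay on it.

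Signal was the background-corrected Cy3 intensity of each probe, quantile-normalized and given as log2, so a difference of 1 is a 2-fold difference. Of 55681 probe names, 43303 had a value on at least 2 arrays of both groups and were tested with limma, and a probe was called at a Benjamini-Hochberg adjusted p under 0.05. The share of probes with a positive and significant signal was 78.9% to 82.6% on TA nuclear arrays and 81.6% to 83.6% on EDL nuclear arrays. Levels correlated between TA nuclear arrays with r from 0.98 to 0.99, between EDL nuclear arrays at 0.99, and between TA and EDL at 0.93 to 0.94, over 39262 probes, which are not independent replicates. Soleus and EDL nuclei, on the same slide and by the labels from the same mice, correlated at 0.97 to 0.98, and TA and soleus nuclei at 0.93 to 0.94.

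Both muscles were bright for marker genes of fast fibers and of skeletal muscle. Myh4, the myosin heavy chain of the fastest fibers, was at 14.33, 14.46 and 14.35 in TA nuclei and at 14.44, 14.54 and 14.32 in EDL nuclei, and the groups overlapped. In soleus nuclei it was between 10.44 and 10.61. Acta1, skeletal alpha-actin, was at 14.70 to 14.95 in TA, 14.75 to 14.84 in EDL and 14.88 to 14.89 in soleus nuclei. Of the other muscle genes checked, Ckm (-0.98), Myh1 (-0.22), Myh2 (-0.85) and Myh7 (-2.68) were called lower in TA nuclei. Neat1, a lncRNA retained in the nucleus, was at 12.06 to 12.08 in TA nuclei and 12.80 to 12.87 in EDL nuclei. In the cytoplasm of the same muscles it was at 8.70 to 9.46 and 9.99 to 10.68. Malat1, another nuclear lncRNA, was at 9.23 to 9.70 in TA nuclei and 9.34 to 9.46 in EDL nuclei. In TA cytoplasm 1, 2 and 3 it was at 6.32, 8.77 and 8.78, and in EDL cytoplasm at 5.68 to 6.95. Cytoplasmic Xist was at 6.01 to 7.36 in TA and 3.79 to 7.96 in EDL.

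Nearly 1 probe of every 2 tested was called. Of the 43303 probes, 21386 (49.4%) passed the threshold, 8552 (19.7%) with the higher signal in TA nuclei and 12834 (29.6%) with the lower. Of these, 2993 (6.91%) were at least 2-fold higher and 3114 (7.19%) at least 2-fold lower. The values of the 3 TA and the 3 EDL arrays did not overlap at 25660 probes (59.3%). The median difference over all probes was -0.11 and the median standard error 0.14. Without any scaling between arrays, the higher probes made up 20.3% of those called. The same fit called 6273 of 44568 probes between soleus and EDL nuclei, which shared a slide and, by the labels, the mice. Between TA and soleus nuclei, which shared no slide and only mouse number 3, it called 21614 of 43529. The part of slide and of animal in these counts was not tested. At least 2-fold differences numbered 1208, 6600 and 6107 for soleus against EDL, TA against soleus and TA against EDL.

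**Figure D1:**
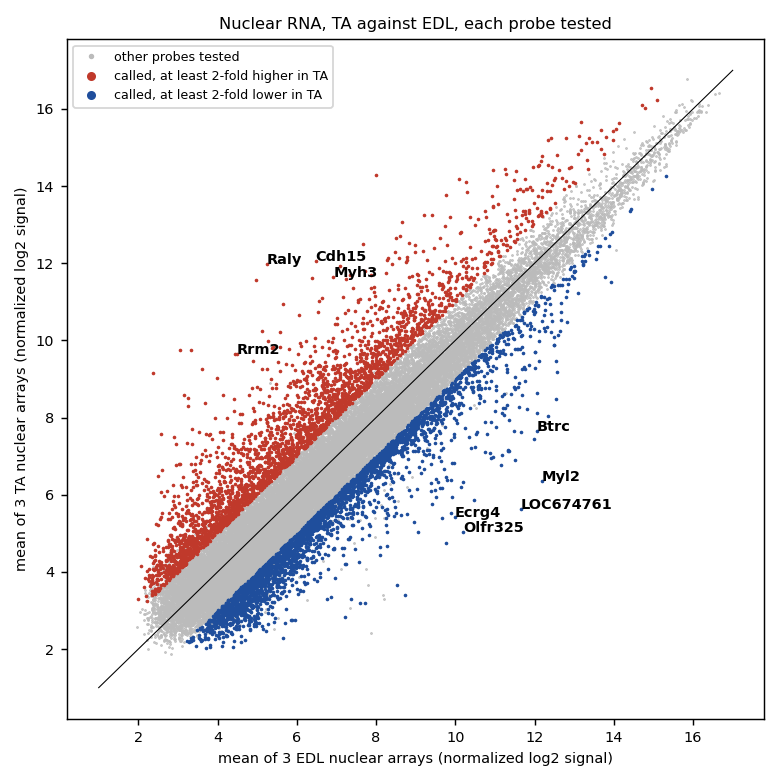
Mean log2 signal of each tested probe in EDL nuclei (x axis) and TA nuclei (y axis), 3 arrays each, with probes called and at least 2-fold different in colour and 9 of the named coding genes labelled. Called probes lie on both sides of the diagonal, 2993 above and 3114 below.

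TA cytoplasm 1 mostly did not show the nuclear differences, and the other TA cytoplasm arrays mostly did. Of the 2852 probes that were at least 2-fold higher in TA nuclei and had cytoplasmic values, 114 (4.00%) were also at least 2-fold higher in TA cytoplasm 1 than in EDL cytoplasm, and 1963 (68.8%) were so in TA cytoplasm 2 and 3. The median of these probes was 1.48 in nuclei, 0.17 on slide 1 and 1.63 in TA cytoplasm 2 and 3. TA cytoplasm 1 lay nearer to the EDL cytoplasm mean than to the mean of the other TA cytoplasm arrays at 2284 of them (80.1%). The background was all 17478 probes above 0 in nuclei that had cytoplasmic values. Of these, 4.21% were at least 2-fold higher on slide 1 and 19.7% in TA cytoplasm 2 and 3. TA cytoplasm 1 lay nearer to EDL cytoplasm at 52.1% of that background. Of the 2519 probes at least 2-fold lower in TA nuclei, 233 (9.25%) were so on slide 1 and 1206 (47.9%) in TA cytoplasm 2 and 3, with medians of -1.26 in nuclei, 0.01 on slide 1 and -0.93 in the other TA arrays. Over all 22659 probes below 0 in nuclei with cytoplasmic values, the shares were 4.84% and 17.5%. The part of slide, scan day or sample in these differences was not tested.

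**Figure D2:**
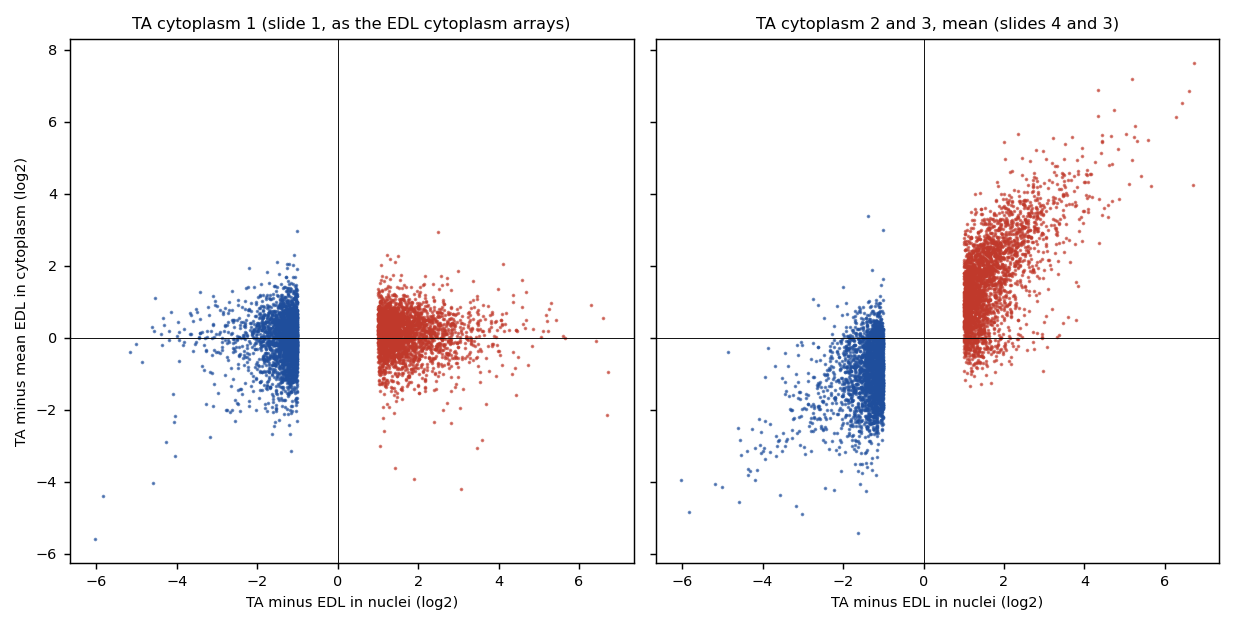
TA minus EDL difference of the probes that were at least 2-fold different in nuclei (x axis, log2) against the same difference in cytoplasm (y axis, log2), with TA cytoplasm 1 on slide 1 in one panel and the mean of TA cytoplasm 2 and 3 in the other. The slide 1 medians of the higher and lower probes are 0.17 and 0.01, and those of the other TA arrays 1.63 and -0.93.

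The 10 coding genes named for the largest differences towards TA were 25.8- to 105-fold higher. Raly, an RNA-binding protein of the hnRNP family, was at 11.68, 11.94 and 12.28 in TA nuclei and 5.36, 5.09 and 5.30 in EDL nuclei. The groups were far apart, at 11.97 ± 0.30 and 5.25 ± 0.14 (SD, n = 3 each), a difference of 6.72 ± 0.15 (SE), or 105-fold (limma, adjusted p = 2.07e-07). Its probe lies at chr2:154692867-154692926 of mm9, on the plus strand. Gchfr, the feedback regulator of GTP cyclohydrolase, was at 11.41, 11.39 and 11.88 in TA and between 4.85 and 5.1 in EDL, a difference of 6.59. TA cytoplasm 1 was at the EDL level for both genes, with 3.79 for Raly and 5.71 for Gchfr, while TA cytoplasm 2 and 3 stood at 12.49 and 12.25 for Raly and 12.13 and 11.94 for Gchfr. Soleus nuclei were at 4.88 to 5.05 for Raly and 4.83 to 5.24 for Gchfr, close to EDL.

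Cdh15, Chrna1 and Mymk were 48.1-, 37.6- and 34.3-fold higher. Cdh15 encodes M-cadherin, which joins satellite cells to the fiber. It was at 12.12, 11.88 and 12.19 in TA nuclei and 6.63, 6.26 and 6.53 in EDL nuclei. Chrna1, the alpha subunit of the muscle acetylcholine receptor, was at 11.77, 11.48 and 11.59 in TA and 6.52, 6.37 and 6.27 in EDL. Its other probe was called in the same direction but differed by 2.06, against 5.23 by the probe shown. Mymk, encoding the membrane protein myomaker that fuses myoblasts, was at 10.38, 9.80 and 10.52 against 5.63, 5.04 and 4.73. All 3 genes were at EDL-like levels in soleus nuclei or slightly above, with Chrna1 at 7.55 to 7.74, and TA cytoplasm 1 had them at 6.6, 6.51 and 5.91, where TA cytoplasm 2 had 12.53, 12.41 and 10.98.

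Myh3, the embryonic myosin heavy chain, was at 11.46, 11.37 and 12.12 in TA nuclei and 6.85, 7.01 and 6.90 in EDL nuclei. Its other probe was called in the same direction but differed by only 0.66, against 4.73 by the probe shown. Rrm2, the small subunit of ribonucleotide reductase, which makes deoxynucleotides, was at 9.25, 9.72 and 10.01 against 4.87, 4.31 and 4.29. Prrx2, a homeobox factor of mesenchyme, differed by 5.05, Zyx, the focal adhesion protein zyxin, by 4.83, and the predicted gene LOC100047930 by 4.69. For all 10 named higher coding genes, TA cytoplasm 1 was nearer to EDL cytoplasm than to the other TA cytoplasm arrays.

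**Figure D3:**
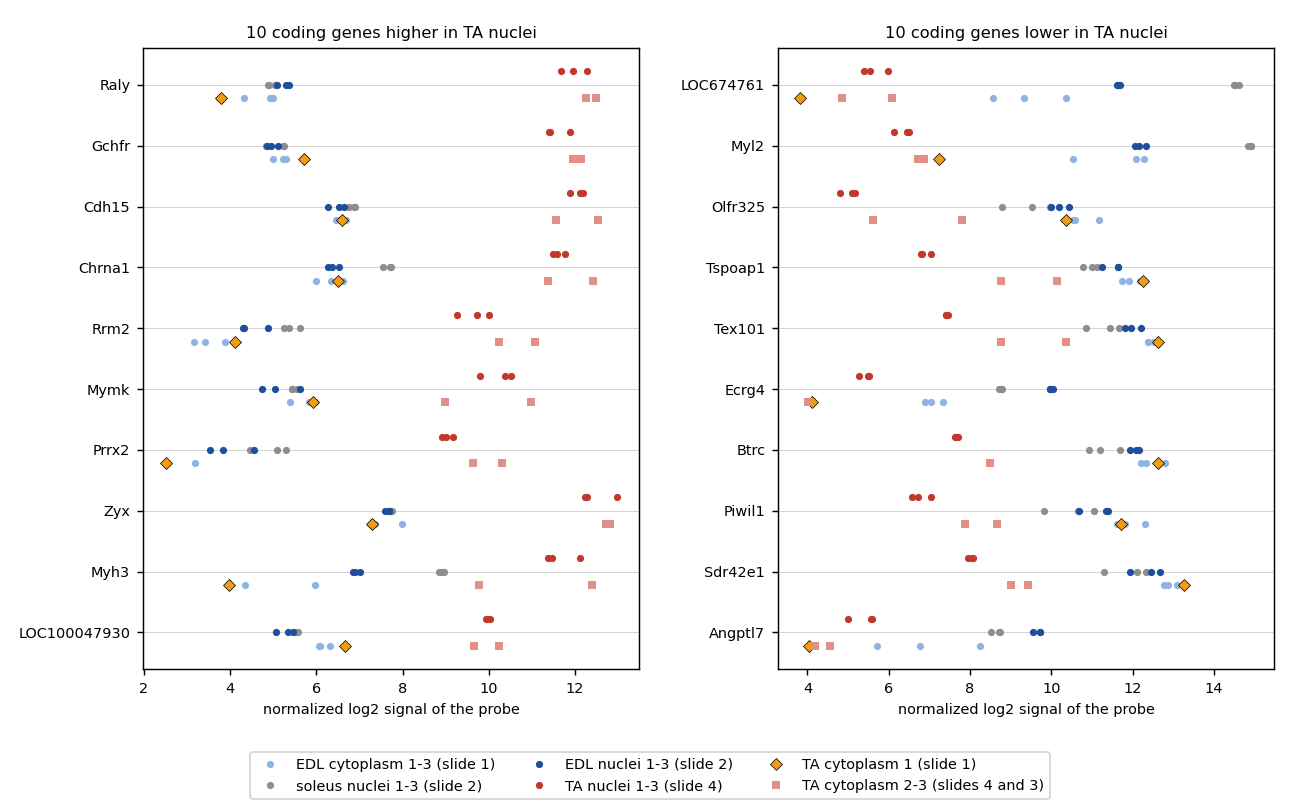
Log2 signal (x axis) on each array of the 10 higher and 10 lower named coding genes (rows), with the nuclear arrays of TA, EDL and soleus and the cytoplasmic arrays of TA and EDL marked separately. The 3 TA nuclear arrays lie apart from the 3 EDL nuclear arrays for every gene, and TA cytoplasm 1 lies with the EDL cytoplasm for all 10 higher genes and 6 of the 10 lower ones.

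The promoters of 4 of these genes are shown because they stood among the genes that differed most and have well-known regulators of muscle or of the cell cycle. Each run is the 250 bases before the RefSeq start site (GRCm38.p6, 5′ to 3′ on the gene's strand). Capitals mark CANNTG, the general form of the E-box, which is not particular to myogenic factors. In Rrm2 they mark CCAAT. Mymk had no entry in the table.
Chrna1, chr2:73580339-73580588, minus strand: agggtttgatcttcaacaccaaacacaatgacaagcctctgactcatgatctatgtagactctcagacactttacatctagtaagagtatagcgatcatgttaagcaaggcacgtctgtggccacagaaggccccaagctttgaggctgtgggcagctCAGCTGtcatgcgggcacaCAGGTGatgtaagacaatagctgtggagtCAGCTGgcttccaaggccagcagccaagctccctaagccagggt
Cdh15, chr8:122848124-122848373, plus strand: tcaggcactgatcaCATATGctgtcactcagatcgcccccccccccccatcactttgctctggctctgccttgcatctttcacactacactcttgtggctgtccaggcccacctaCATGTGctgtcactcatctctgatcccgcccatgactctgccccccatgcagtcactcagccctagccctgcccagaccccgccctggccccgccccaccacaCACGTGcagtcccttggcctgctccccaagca
Myh3, chr11:67078050-67078299, plus strand: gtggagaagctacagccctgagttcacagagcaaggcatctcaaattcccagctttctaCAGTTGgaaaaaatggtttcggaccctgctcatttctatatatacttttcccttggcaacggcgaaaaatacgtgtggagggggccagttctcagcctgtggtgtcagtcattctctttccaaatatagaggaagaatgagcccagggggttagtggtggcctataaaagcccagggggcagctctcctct
Rrm2, chr12:24708004-24708253, plus strand: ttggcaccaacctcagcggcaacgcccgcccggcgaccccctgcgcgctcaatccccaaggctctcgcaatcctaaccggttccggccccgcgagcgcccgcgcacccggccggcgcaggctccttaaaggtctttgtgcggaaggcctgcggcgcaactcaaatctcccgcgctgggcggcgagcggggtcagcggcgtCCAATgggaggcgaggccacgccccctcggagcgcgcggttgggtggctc
Searched on both strands, CANNTG occurred 3 times in Chrna1, 2 of them as CAGCTG, 3 times in Cdh15 and 1 time in Myh3, and CCAAT occurred 1 time in Rrm2. CANNTG was found in 66.2% of 32851 promoters of this length, CAGCTG in 13% and CCAAT in 33.8%, and CAGCTG is itself a form of CANNTG. A match describes the letters and not a bound site.

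The 10 coding genes named for the largest differences towards EDL were 19.3- to 65.0-fold lower in TA. Myl2, the slow and cardiac regulatory light chain of myosin, was at 6.45, 6.49 and 6.13 in TA nuclei, at 12.16, 12.33 and 12.06 in EDL nuclei and at 14.83 to 14.92 in soleus nuclei. TA was 5.83 ± 0.12 (SE) below EDL on the log2 scale, 56.8-fold (limma, adjusted p = 1.73e-07). LOC674761 differed most, at 5.53, 5.38 and 5.97 against 11.62, 11.64 and 11.69, and its probe ends at chr14:55589580 of mm9, the base before the probe of Myh7 begins. Both were low on all 3 TA cytoplasm arrays, TA cytoplasm 1 included, at 7.24, 6.72 and 6.87 for Myl2 and 3.83, 6.08 and 4.86 for LOC674761. Their slide 1 differences were -4.39 and -5.58.

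Ecrg4, which encodes a secreted peptide precursor, was at 5.52, 5.50 and 5.27 in TA nuclei and 9.97, 10.04 and 9.96 in EDL nuclei. Angptl7, a secreted angiopoietin-like protein, was at 5.57, 5.58 and 5.01 against 9.71, 9.71 and 9.56. Both were also lower in TA on slide 1, by -2.99 and -2.88. The other 6 named lower coding genes were bright in EDL and soleus nuclei, in EDL cytoplasm and in TA cytoplasm 1. They were Olfr325 (-5.17), an olfactory receptor gene, Tspoap1 (-4.62), Tex101 (-4.56), a sperm surface protein, Btrc (-4.40), a ubiquitin ligase subunit, Piwil1 (-4.37), a germline small-RNA binding protein, and Sdr42e1 (-4.32). By its other tested probe, Btrc differed by only -0.70. Olfr325 was at 4.81, 5.09 and 5.17 in TA nuclei and 10.18, 9.99 and 10.43 in EDL nuclei. In TA cytoplasm 1, 2 and 3 it was at 10.36, 5.61 and 7.8.

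The differences that were also seen on slide 1 came to 75 genes higher and 192 genes lower in TA, each at least 2-fold in nuclei and on slide 1. Of them, 63 and 177 were at least 2-fold in TA cytoplasm 2 and 3 too. This set was made after values were seen, and no test is given. By brightest probe, 2242 genes were at least 2-fold higher in TA nuclei and 1797 lower. By probe, the shares also 2-fold on slide 1 were 4.00% of the higher and 9.25% of the lower. Over all probes on the same side of 0 in nuclei, the shares were 4.21% and 4.84%. The share of the higher probes was thus near that background. Of the 192 lower genes, 4 were among the 18 of the slow contractile list (Myl2, Myl3, Myh7 and Tpm3) and 6 among the 9 of the tendon list, and of the 75 higher genes 0 were in either. Others with large lower values were LOC674761, 2310002L09Rik (-4.60 in nuclei, and -0.72 by its other probe), Angptl7, Cpxm2 (-3.09) and Vit (-2.96). The higher ones included Fignl1 (3.36) and the water channel Aqp5 (2.81, and 0.77 by its other probe). Mymx, the fusion peptide myomixer, was not well above background in EDL nuclei and was at least 12.3-fold higher in TA. It was at 7.67, 7.54 and 7.70 in TA nuclei, 3.65, 3.87 and 3.06 in EDL nuclei and 5.73 in TA cytoplasm 1, against 4.40, 2.33 and 4.27 in EDL cytoplasm.

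Some probes were well above background on all 3 arrays of one muscle and on none of the other, 416 in TA and 1056 in EDL, against 30814 that were so on all 6 arrays. For these the dim side gives only a bound, taken from the lowest signal among probes well above background. Pkp1, the desmosomal protein plakophilin 1, was at 9.88, 9.42 and 9.95 in TA nuclei and not well above background in EDL, at least 53.4-fold higher (adjusted p = 4.43e-06), with a slide 1 difference of -2.15. The lncRNA 2900076A07Rik was at least 53.7-fold higher by 1 probe, whereas its other probe was lower in TA, by -0.66. Ugt2a1, a glucuronosyltransferase, was at 9.67, 9.29 and 9.25 with no value in EDL, at least 41.9-fold higher and not tested. In the other direction, Wif1, an extracellular inhibitor of Wnt, was at 8.84, 8.68 and 8.67 in EDL, at least 23.8-fold higher than in TA (adjusted p = 1.54e-06), with a slide 1 difference of -2.69. Myh13, the extraocular myosin heavy chain, was at 8.58, 8.52 and 8.50, at least 20.7-fold higher. The lncRNA 4831440D22Rik was at 14.1, 5.52 and 4.94 in EDL, and its at least 16.3-fold difference (adjusted p = 0.0862) came down to 2.10-fold without EDL nuclei 1.

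Gene lists follow, each gene by its brightest probe. Over all 28813 genes so measured, 22.3% were called higher and 28.5% lower, 7.78% and 6.24% at least 2-fold, and the median was -0.07. Each nuclear median below should be read beside that value. On slide 1, the median was 0.31 over all probes above 0 in nuclei and 0.15 over all probes below 0. Both are over probes and not over genes by brightest probe, so they are only a rough background for slide 1 medians of the lists. Some lists of bright genes lay mostly below 0 on slide 1, with 70 of 80 respiratory chain and 66 of 76 ribosomal protein genes. Of 37 histone genes, 31 lay above 0. The share of all genes below 0 on slide 1 was not computed, so counts of list members lower there have no such background.

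Slow contractile genes held the widest range of all lists. Of 18, 2 were called higher and 11 lower in TA, 8 of them at least 2-fold, with a median of -0.84. On slide 1, 17 of the 18 were lower in TA, with a median of -1.09. Myh7, the slow myosin heavy chain, was at 8.72, 8.55 and 9.12 in TA, 11.41, 11.60 and 11.41 in EDL and 14.97 to 15.03 in soleus nuclei. Myl3, the slow essential light chain, was at 8.72, 8.78 and 8.72 in TA and 11.55, 11.41 and 11.54 in EDL. Myh6, a cardiac myosin heavy chain, differed by -3.17, and Sln, the calcium pump inhibitor sarcolipin, by -3.01, from 8.38, 6.86 and 6.41 in EDL. Sln was higher in TA on slide 1, by 0.89. The 2 higher members were Myl6b, an essential light chain, at 4.43 and Tnni1, slow troponin I, at 2.61, and their slide 1 differences were in the other direction, at -1.60 and -1.0. Tnnt1, slow troponin T, was at 12.75 and 12.36 on average and did not pass (adjusted p = 0.0571).

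Fast contractile genes were lower in TA nuclei or did not pass. Of 18, 13 were called lower and 0 higher, 4 at least 2-fold, with a median of -0.70. The 3 largest were Jph1, a junctional membrane protein (-1.32), Casq1, fast calsequestrin (-1.23), and Mylpf, the fast regulatory light chain (-1.09). Casq1 was at 11.99, 12.17 and 11.99 in TA and 13.26, 13.29 and 13.28 in EDL, with a slide 1 difference of 0.01. Giant sarcomere and sarcolemma proteins were mostly lower too, with 23 of 27 called lower, 2 higher and a median of -0.63. Sgcd (-1.68), a sarcoglycan, and Myom3 (-1.27), an M-band protein, were among the lower ones, and Flnc (1.39), filamin C, among the higher.

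**Figure D4:**
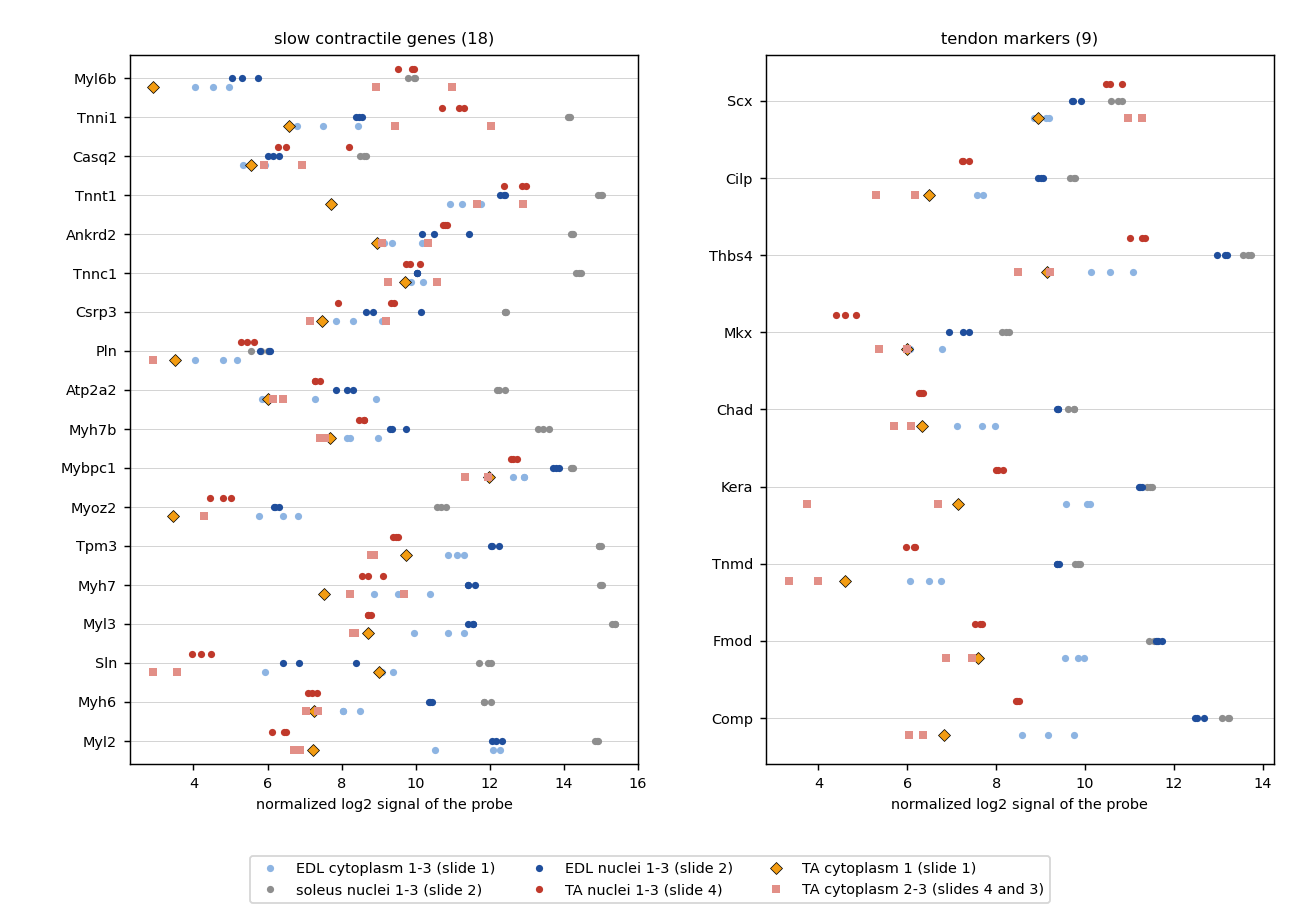
Log2 signal per array (x axis) of 18 slow contractile genes and 9 tendon markers (rows) in TA, EDL and soleus nuclei and in TA and EDL cytoplasm. The TA nuclear values of Myl2, Myh7, Comp, Fmod and Tnmd all lie below those of EDL, and soleus nuclei have the highest values of Myl2 and Myh7.

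Tendon markers, genes of fibrous connective tissue at the fiber ends, gave the lowest median of all lists. Of 9, 8 were called lower in TA, all 8 at least 2-fold, and 1 higher, with a median of -3.07. Comp, a matrix protein of tendon and cartilage, was at 8.47, 8.44 and 8.52 in TA, 12.48, 12.67 and 12.51 in EDL and 13.18 on average in soleus nuclei. Fmod, the collagen-binding proteoglycan fibromodulin, was at 7.69, 7.63 and 7.53 against 11.64, 11.72 and 11.60. Tnmd, tenomodulin, was at 6.15, 6.17 and 5.97 against 9.36, 9.42 and 9.36. All 9 markers were lower in TA on slide 1, with a median of -1.45. The mean level of the list was 7.78 to 7.85 on TA arrays and 10.3 to 10.4 on EDL arrays. General connective tissue markers were lower in 10 of 14 and higher in 3, with a median of -0.62, and the 2 lower by at least 2-fold were Col1a1 (-2.42) and Dcn, decorin (-1.30). The part of tendon and connective tissue left on the fibers in other differences was not tested.

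Schwann cell markers were lower in TA for 11 of 11 tested, 8 at least 2-fold, with a median of -1.13 and of -0.25 on slide 1. Mbp, myelin basic protein, was at 7.26, 7.37 and 7.09 in TA and 8.77, 8.66 and 8.69 in EDL, a difference of -1.47, and Cldn19, a tight junction gene of Schwann cells, differed by -1.50. The list was at 6.87 to 6.91 on average in TA, 8.04 to 8.11 in EDL and 7.19 to 7.26 in soleus nuclei.

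Satellite cell markers went both ways, with 6 of 10 tested called higher and 3 lower. Pax7, the transcription factor that defines satellite cells, was dim, at 4.79, 5.32 and 5.98 in TA and 3.59, 2.68 and 3.88 in EDL, where it was not well above background, so TA was at least 2.55-fold higher (limma, adjusted p = 0.0030). The surface proteoglycan Sdc4 (-1.04) and the lectin Chodl (-1.34) were lower. Markers of endothelium were higher in 10 of 16 and lower in 3, none by 2-fold, and those of pericytes and smooth muscle higher in 8 of 10. On slide 1 the median of both lists was below 0, at -0.53 and -0.55. Acta2, smooth muscle actin, was at 13.54, 13.77 and 14.21 in TA and 10.34, 10.30 and 10.27 in EDL, and was lower in TA on slide 1, by -0.95. The satellite cell list averaged 7.19 to 7.47 in TA, 6.55 to 6.73 in EDL and 7.24 to 7.41 in soleus nuclei, so the soleus range reached into that of TA.

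At the neuromuscular junction, where the nerve meets the fiber, 10 of 24 genes were higher and 8 lower, with a median of 0.04. Receptor subunits and their anchor were among the higher ones. Chrnd was at 9.75, 9.90 and 9.94 in TA against 6.11, 6.05 and 6.15 in EDL, and Rapsn, which clusters the receptors, at 12.01, 12.05 and 12.40 against 8.92, 8.76 and 8.66. The adult subunit Chrne (-1.39) and the acetylcholinesterase gene Ache (-1.57) were lower, as was Ufsp1 (-1.07). Slide 1 differences were -0.92 for Chrnd, 0.53 for Rapsn and 0.19 for Chrna1.

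Factors that set fiber type were called lower in 14 of 26 and higher in 5. Sox6, a repressor of slow genes (-1.54), Tbx15 (-1.54), a factor of fast fibers, and Prox1, a factor of slow fibers, were lower, and Six4 (1.12) and the histone deacetylase Hdac5 (2.00) were higher. Prox1 was not well above background in TA, at 3.18, 3.37 and 3.44, and was at least 2.04-fold higher in EDL, at 4.86, 5.6 and 5.11, with 8.02 on average in soleus nuclei. Of 12 myogenic factors tested, Myog, a driver of differentiation, was at 8.69, 8.50 and 8.82 in TA and 6.74, 6.77 and 6.65 in EDL, and Myf6, the factor most abundant in adult fibers, was lower by -1.40. The groups did not overlap for either gene. Hox and limb patterning genes were called higher in 7 of 43 and lower in 12, with Hoxd9 at 6.54, 6.65 and 6.66 in TA and 8.26, 8.26 and 8.17 in EDL. Hoxd11 and Emx2 were not well above background in TA and were at least 2.89-fold and 1.50-fold higher in EDL, and Hoxb7 was not so in EDL and at least 1.58-fold higher in TA. These were dim genes, and 29 of 43 were well above background on at least 1 TA array.

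Metabolic genes were mostly lower, by modest amounts. Of 29 genes of glycolysis and glycogen, 16 were lower and 2 higher, with a median of -0.49. Ldhb, the lactate dehydrogenase subunit of oxidative fibers, was at 8.61, 8.96 and 8.77 in TA, 10.47, 10.60 and 10.66 in EDL and 12.77 on average in soleus nuclei, with a slide 1 difference of -1.96. Of 80 nuclear-encoded respiratory chain genes, 53 were lower and 7 higher, with a median of -0.44, but the largest members were higher: Cox6a1, the non-muscle isoform of a cytochrome oxidase subunit, was at 13.97, 14.11 and 14.46 in TA and 10.03, 10.13 and 10.13 in EDL, and Cox8a differed by 2.94. Both were lower in TA on slide 1, at -0.77 and -0.53. Of 27 genes of fatty acid uptake and oxidation, 14 were lower and 6 higher, and Pdk4, the kinase that turns pyruvate oxidation down, was at -2.04 with a slide 1 difference of 1.00.

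Ribosomal protein genes and replication-dependent histones had more members called higher than lower. Of 76 cytosolic ribosomal proteins, 39 were higher and 6 lower, with a median of 0.24 in nuclei and of -0.16 on slide 1. Rps10 was at 15.20, 15.30 and 15.22 in TA and 12.40, 12.47 and 12.39 in EDL, and Rpl3 at 12.99, 13.27 and 13.34 against 10.39, 10.48 and 10.27. Of 37 histone genes tested, 20 were higher and 3 lower, with a median of 0.46 in nuclei and 0.38 on slide 1. H2ac11 was at 14.26, 14.43 and 14.54 against 11.03, 11.14 and 10.66. Histone genes are near-identical copies, and probes of one member can bind others. Splicing factors were lower in 18 of 36 and higher in 6. Srsf6 was at 8.59, 8.68 and 9.04 against 5.59, 5.2 and 5.30 by its brightest probe, but its other tested probe was called lower. Proteins of the nuclear lamina and its links to the cytoskeleton were called higher in 7 and lower in 7 of 19, with 5 higher and 0 lower by at least 2-fold, and Syne3 (1.98), Lemd2 (1.92) and Lbr (1.88) were the largest.

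Immediate early genes, which are switched on within minutes by outside stimuli, were lower in TA nuclei in 23 of 32 and higher in 3, with 13 lower by at least 2-fold and a median of -0.82. Fos was at 9.65, 9.75 and 9.60 in TA and 11.20, 11.25 and 11.15 in EDL, and Egr1 at 10.95, 11 and 10.93 against 12.26, 12.27 and 12.24. Junb differed by -1.96 and Nr4a3 by -1.71. Socs3, an inhibitor of cytokine signalling, was at 9.77, 9.95 and 9.93 against 14.19, 11.68 and 11.59, a difference of -2.61, which was -1.76 without EDL nuclei 1. Of the 32 genes, 29 were lower in TA on slide 1 as well, with a median of -1.06. Heat shock and chaperone genes were lower in 15 of 24 and higher in 5, with Hspa1a at -1.60, Hspb6 at -1.21 and Hsp90ab1, the constitutive cytosolic chaperone, at 2.54. Of 17 circadian clock genes, 10 were lower and 0 higher, with Nfil3 at -1.43 and Bhlhe40 at -1.17.

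Genes of FoxO signalling and atrophy were lower in 14 of 24 and higher in 7. Eif4ebp1, which restrains translation, was at 11, 11.28 and 11.76 in TA and 7.94, 7.8 and 7.88 in EDL, and Ddit4, an inhibitor of mTOR signalling, differed by 2.12. Cdkn1a, the cell cycle inhibitor p21, was at 11.30, 11.02 and 11.35 against 9.44, 9.41 and 9.38. Gadd45a (-1.65), Fbxo30 (-1.43) and Mt2 (-1.26) were lower. Slide 1 differences of these 6 genes lay between -0.92 and 0.25.

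**Figure D5:**
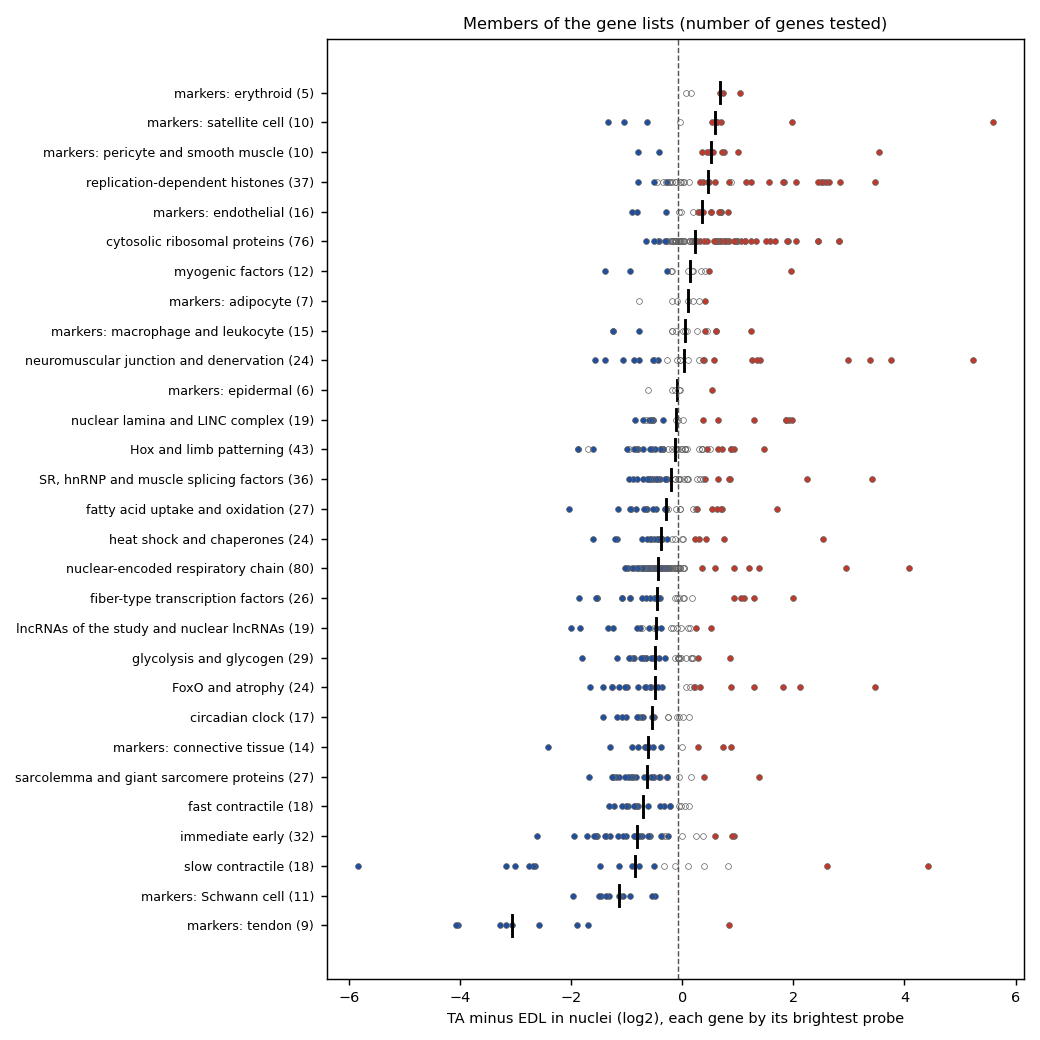
TA minus EDL difference in nuclei (x axis, log2) of every tested member of each gene list (rows), with called genes filled, a bar at each median and a dashed line at the median of all genes. Tendon markers have the lowest median, -3.07, and erythroid markers the highest, 0.68. The medians of histones, ribosomal proteins and satellite cell markers lie to the right of 0. Those of some other lists do too, among them pericyte and smooth muscle (0.51) and endothelial markers (0.35).

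Of 12321 probes to lincRNA regions, 1753 (14.2%) were higher and 3730 (30.3%) lower in TA, and of 1273 probes to annotated lncRNAs 204 were higher and 279 (21.9%) lower. The shares over all probes were 19.7% and 29.6%, so the lower share of lincRNA regions was near that background and that of lncRNAs below it. Of 24667 probes to coding genes, 22.8% were higher and 29.9% lower. In the list of lncRNAs of the study and of known nuclear lncRNAs, 9 of 19 were lower and 2 higher, with a median of -0.48 in nuclei and of 0.43 on slide 1. Xist, the RNA that coats the inactive X chromosome, was at 8.54, 8.55 and 8.67 in TA and 10.60, 10.67 and 10.51 in EDL, with a slide 1 difference of 0.11. 2310065F04Rik was at 8.26, 8.44 and 8.31 against 9.55, 9.61 and 9.86. Dnm3os, a host transcript of microRNAs, was at 7.12, 7.23 and 7.31 against 9.10, 9.20 and 8.92.

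The probes of the lincRNA regions that differed most are shown because the regions have no gene name and the sequence is what was measured. They are the 60 bases of the array, 5′ to 3′, in lower case, for regions of mm9 whose name ends in F or R for the strand.
chr16:39984031-40081556_R, higher in TA: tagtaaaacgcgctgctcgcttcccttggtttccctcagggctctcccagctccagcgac
chr3:87757295-87774970_F, higher in TA: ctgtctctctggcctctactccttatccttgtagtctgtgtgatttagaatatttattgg
chr4:94742359-94822969_F, higher in TA: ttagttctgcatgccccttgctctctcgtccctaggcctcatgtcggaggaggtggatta
chr8:123901815-123902167_R, higher in TA: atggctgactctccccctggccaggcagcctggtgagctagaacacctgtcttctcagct
chr14:99752098-99752425_R, lower in TA: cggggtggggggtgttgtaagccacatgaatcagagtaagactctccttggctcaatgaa
chr5:53931541-53945241_R, lower in TA: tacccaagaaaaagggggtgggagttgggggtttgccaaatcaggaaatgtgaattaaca
The first was at 11.86, 11.92 and 12.01 in TA and 7.08, 7.17 and 6.98 in EDL, a difference of 4.85, and TA cytoplasm 1, 2 and 3 had 8.56, 12.21 and 12.10. Of its 3 other tested probes, 1 was called higher, so the values belong to the probe and not to the whole region. The second was at 11.70, 12.30 and 12.85 against 8.52, 8.33 and 8.61, and 3 of its 4 other probes were called higher. The third differed by 3.76 and the fourth by 3.65, with 0 of 1 other probe called for either.

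Of the lower regions, the fifth was at 5.39, 5.59 and 5.61 in TA and 9.86, 9.48 and 10.31 in EDL, and TA cytoplasm 1 had 10.52. The sixth was at 7.28, 7.06 and 7.12 against 11.16, 11.42 and 11.43, with 1 of 3 other probes called lower. Among named lncRNAs, 3300005D01Rik was higher by 3.76, and A630026N12Rik (-4.14), 4933417O13Rik (-3.94) and 4930505N22Rik (-3.94) were lower. A630026N12Rik spread widely in EDL, at 11.71, 9.83 and 11.98. TA cytoplasm 1 lay nearer to EDL cytoplasm than to the other TA cytoplasm for all 5 higher and 4 of the 5 lower non-coding transcripts.

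The difference between muscles was also compared between fractions, in a fit over all 18 arrays. Of 41538 probes, 191 (0.46%) had a TA minus EDL difference that differed between nuclei and cytoplasm, 58 of them higher in nuclei, and 5536 did so at an unadjusted p under 0.05. Without TA cytoplasm 1 the count was 1116.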

How the data were processed

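Nuclear RNA of 3 TA and 3 EDL fiber pools was labelled with Cy3 and hybridized to Agilent mouse arrays with 62976 spots. Per the file headers, the deposited scanner files hold a processed intensity of each spot, background already subtracted by Feature Extraction 10.7.3.1, with probe positions of mm9. The authors' deposited value table of quantile-normalized intensity (3668 probe names) was used as an alternative only, and each of its columns ranked the probes as that array's scanner file did, with Spearman's rho from 0.99955. 

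The 3671 control spots, spots flagged as outliers (0.263% to 0.568% of an array) and spots without a positive and significant signal were left out. The intensity was taken to log2, quantile-normalized over 18 arrays, and averaged by probe name. A model with 3 group means over the 9 nuclear arrays was estimated in R 4.3.3 (limma 3.58.1) and left 6 residual degrees of freedom. Adjusted p-values are those of Benjamini and Hochberg. Probes needed values on 2 arrays of both groups. The fit was tested on simulated data. Replicate numbers do not pair TA with EDL nuclei: the labels name other mice, and the deviations of same-numbered arrays correlated at -0.01, 0.01 and -0.01. Groups are samples that the labels call biological replicates, but each fiber pool was small, and p-values measure only the spread between these samples, which may be technical. With 3 arrays a group, their number limits the precision.

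Named coding genes were the 10 with the largest difference in each direction, and named non-coding transcripts the 5, among those called, not overlapping, well above background on all 3 arrays of the higher group and on at least 1 of the other, and with at least 50% of tested probes in the same direction. Up to 3 probes in each direction that were above background in 1 group only and the largest called members of each gene list, or the brightest where none was 2-fold, were then named. Exceptions are said to be chosen after their values were seen, and Myl3, Tnnt1, Fos and Egr1 were added in this way. The genes of the label check, Myh7 among them, were a fixed list outside this rule. Some genes that the rule selects are not reported here. The members and lists were chosen with earlier results of these data known. Gene names were taken from the array and updated through RefSeq by accession for 26425 probe names, by symbol for 3988 and by synonym for 826, and 24442 had no match. Promoters came from RefSeq on GRCm38.p6, whose coordinates were not mixed with mm9. Alternatives were other scalings, background corrections, filters, fits, the methods' own test, the authors' table and leaving out each replicate.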

Additional observations from a re-analysis of the deposited data

Results flagged for a closer look

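The TA minus EDL difference in nuclei and that in cytoplasm differed, by an interaction term fitted with limma over all 18 arrays, for 9 of the genes and transcripts named above. The difference in nuclei minus that in cytoplasm was -1.52 for Ecrg4 (adjusted p = 0.0218), 2.55 for the region chr3:87757295-87774970_F (adjusted p = 0.0353), -1.95 for Hoxd11 (adjusted p = 0.0394) and -1.84 for Dnm3os (adjusted p = 0.0334). It was -1.70 for Cldn19, a tight junction gene of Schwann cells (adjusted p = 0.0212), -1.56 for Fmod (adjusted p = 0.0278) and -2.19 for Myh6 (adjusted p = 0.0043). It was -2.70 for Wif1 (adjusted p = 0.0216) and -4.38 for Myh13 (adjusted p = 0.0212). Wif1, Myh13 and Hoxd11 were not well above background in TA nuclei, and Wif1 and Ecrg4 were not so in TA cytoplasm, so the difference there is only a bound and the size of these 4 values is not settled, nor is the direction for Wif1 and Ecrg4. In cytoplasm the TA arrays came from 3 slides and in nuclei from 1, and the part of slide in these values was not tested.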

How the results depend on the processing

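Slide and muscle could not be separated, and the fit with slide as a block was not run because each muscle's nuclei lay on 1 slide of their own. The 21386 probes called became 8143 in a fit on all 18 arrays, 65 by the methods' t-test with Bonferroni adjustment (16495 with Benjamini-Hochberg) and 1515 of 3668 in the authors' value table. With the nuclear arrays of a muscle averaged to 1 sample and the spread taken from the cytoplasm, limma called 0 at a lowest adjusted p of 0.0606, with 1821 at an unadjusted p under 0.05. The 6107 called at least 2-fold became 2094 after normexp background correction, 0 after averaging, 54 with Bonferroni adjustment and 359 in the value table. Of the 5737 probes called at least 2-fold that had a slide 1 difference, whether or not TA cytoplasm 2 and 3 had values, 410 (7.15%) were also 2-fold on slide 1, and this share was 3.78% after normexp, 33.3% with Bonferroni adjustment and 3.34% in the value table. The 191 interaction calls became 441 with 75th percentile scaling, 672 with no scaling, 444 after normexp, 404 with no filter and 29 in the value table. Leaving out 1 TA or EDL nuclear array gave 18 (without EDL nuclei 3) to 71, and leaving out TA cytoplasm 1, chosen after seeing the data, gave 1116. The other cytoplasm arrays were not left out. The median over genes was -0.07, and -0.36 with no scaling. The replicate block gave 19752 and 6018 calls and changed no call of a named gene.

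Of the 120 named genes, 117 lost the call after averaging, 108 with Bonferroni adjustment and 15 in the fit on all arrays, among them Xist and Sln. Ndufc2, which rests on TA nuclei 3, and Hoxb7 lost it in several alternatives. The named genes that had no call to lose in the main fit were Krt14, Krt10 and Fabp4. Krt14, not called, turned to 0.017 with 75th percentile scaling and lay between -0.24 and 0.26 when 1 array was left out, and Fabp4, not called, turned to -0.021 with no scaling. Relative to all genes, the list medians of fast contractile genes (-0.63) and of glycolysis (-0.42) were -0.44 and -0.26 with 75th percentile scaling and with no scaling. That of tendon markers (-2.995) was -3.13 under both and with quantile normalization over the 6 nuclear arrays of TA and EDL. After normexp background correction it was -2.34. The medians of Schwann cell (-1.06), connective tissue (-0.55), satellite cell (0.65) and erythroid markers (0.75) also shrank after normexp, to -0.64, -0.32, 0.31 and 0.35. In the value table the medians of ribosomal proteins (0.31), the respiratory chain (-0.37) and histones (0.53) were 0.41, -0.16 and 1.44.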

Other observations

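Genes of DNA replication and mitosis were looked at after their values were seen, and no test is given. Ccna2, the S-phase cyclin, was at 8.51, 9.25 and 9.71 in TA nuclei and 2.98, 2.16 and 2.00 in EDL nuclei. It was not well above background in EDL nuclei, so TA was at least 35.4-fold higher. TA cytoplasm 1 had 2.36 where TA cytoplasm 2 had 9.34. Mki67, a marker of cycling cells, was at 8.42, 9.09 and 9.42 in TA and 5.91, 6.25 and 5.84 in EDL nuclei. In soleus nuclei it was at 7.16, 6.96 and 7.31. By its other tested probe the TA minus EDL difference was 0.995, against 2.98 by the probe shown. Top2a, topoisomerase II alpha, was at 5.02, 5.51 and 6.00 in TA and 3.80 and 2.91 in EDL, where the third array had no value. Top2a too was not well above background in EDL nuclei, and TA was at least 2.83-fold higher. Pcna, the replication clamp, was at 8.15, 8.57 and 8.70 in TA and 8.52, 8.13 and 8.21 in EDL, and the groups overlapped. Actc1, cardiac actin of developing muscle, was at 12.34, 12.33 and 12.56 against 10.83, 10.41 and 9.84. Myh8, the neonatal myosin heavy chain, was at 14.62 to 14.73 in TA, 14.92 to 14.94 in EDL and 14.66 to 14.76 in soleus nuclei by 1 probe. Its 2 other tested probes differed by -0.07 and 0.76, and 1 of them was called higher in TA. Whether the bright Myh8 probe also binds transcripts of other myosin heavy chains was not tested, so its level may not be that of Myh8 alone.

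Of 15 macrophage and leukocyte markers 4 were higher and 3 lower in TA nuclei, with Cd52 at 1.24 and Cd163 at -1.24, while Mrc1 was not well above background in TA. Of 5 erythroid markers 3 were higher and 0 lower, with Hbb-bt at 1.04, and of 7 adipocyte and 6 epidermal markers 1 each was higher.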
